A study of Homo sapiens with 6 samples.

Results

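The 4 human HOX clusters were described here by the accessible regions that lie inside fixed bounds on hg19. The bounds were chr7:27120000-27260000 for HOXA, chr17:46595000-46815000 for HOXB, chr12:54325000-54455000 for HOXC and chr2:176950000-177060000 for HOXD, together 600 kb. Every deposited peak touching these bounds by at least 1 bp was taken. This gave 52 of the 127153 control peaks and 52 of the 112610 shHMGA1 peaks, or 104 of 239763 peaks in both lists. The bounds enclose 38 HOX genes examined by name: HOXA2, HOXA3, HOXA4, HOXA5, HOXA6, HOXA7, HOXA9, HOXA10, HOXA11 and HOXA13; HOXB1 to HOXB9 and HOXB13; HOXC4, HOXC5, HOXC6 and HOXC8 to HOXC13; and HOXD1, HOXD3, HOXD4 and HOXD8 to HOXD13.

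Chromatin accessibility was assayed by ATAC-seq, which marks open DNA by insertion of the Tn5 transposase, in DAMI cells, a human leukaemia line given the disease state MPN/AML (myeloproliferative neoplasm or acute myeloid leukaemia). The control group was 3 samples infected with a control lentivirus, and the other group was 3 samples infected with a lentivirus carrying a short hairpin RNA against HMGA1 (shHMGA1), so all samples were virally transduced. HMGA1 is an architectural chromatin protein whose AT-hooks bind AT-rich DNA, and the comparison asks how accessible DNA differs when it is silenced. Each group is represented by 1 peak list with no values per sample, so differences between the lists have no replicate error, no test was made and no p-value is given. All 6 samples are labelled DAMI, but the design text of the series also names a second line, SET-2, and the names of the lists give no cell line, so whether other libraries entered them is not known. The sequence depth behind the lists is unknown, and the lists carry no expression values with which the cell line or the silencing of HMGA1 could be checked.

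HOX genes encode homeodomain transcription factors that give cells their position along the body axis. Within a cluster the genes lie in the order of their paralogue numbers: low-numbered genes act anteriorly, towards the hindbrain, and high-numbered genes act posteriorly, in the lower trunk and the ends of the limbs. In blood cells the clusters are used again: HOXA9 and HOXA10 are active in stem and progenitor cells and are often overexpressed in acute myeloid leukaemia, HOXB4 promotes expansion of stem cells, and inherited changes of HOXA11 cause loss of megakaryocytes with fused forearm bones. Many HOX proteins bind DNA together with the cofactors PBX and MEIS.

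In RefSeq (GRCh38.p14) the named genes followed their paralogue numbers in each cluster, from HOXA2 to HOXA13, HOXB1 to HOXB13, HOXC4 to HOXC13 and HOXD1 to HOXD13. The anterior end is the low-coordinate end for HOXA and HOXB and the high-coordinate end for HOXC and HOXD. Since the peaks are on hg19 and the gene table is on another build, gene coordinates were not used. Peaks are therefore placed by the distance of their summit from the anterior bound and are not assigned to single genes.

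Promoter sequences give the DNA context of these genes. RefSeq promoters of GRCh38.p14, running from 250 bases before to 50 bases after a gene's start, were found for 20 of the 38 genes, with 26 distinct sequences, because HOXA3 has 7, HOXA10 has 2, and HOXC4 and HOXC5 share 1. Below, the 150 bases just before the start are shown for 4 of them, from the most TAAT-rich promoter to the one richest in G and C. Capitals mark TAAT or its reverse complement ATTA, the core word that homeodomains recognise. The stretches are chr7:27165538-27165687 (minus strand) for HOXA9, chr2:176157157-176157306 (plus strand) for HOXD3, chr7:27102684-27102833 (minus strand) for HOXA2 and chr7:27200092-27200241 (minus strand) for HOXA13, all on GRCh38.p14.
HOXA9: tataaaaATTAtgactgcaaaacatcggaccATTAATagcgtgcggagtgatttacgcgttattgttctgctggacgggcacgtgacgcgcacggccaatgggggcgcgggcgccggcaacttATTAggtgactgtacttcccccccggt
HOXD3: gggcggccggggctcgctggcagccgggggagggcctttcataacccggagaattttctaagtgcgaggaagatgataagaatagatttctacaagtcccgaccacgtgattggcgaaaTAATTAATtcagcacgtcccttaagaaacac
HOXA2: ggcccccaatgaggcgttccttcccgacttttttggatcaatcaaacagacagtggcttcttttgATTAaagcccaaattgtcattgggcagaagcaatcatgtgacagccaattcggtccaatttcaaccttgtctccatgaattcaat
HOXA13: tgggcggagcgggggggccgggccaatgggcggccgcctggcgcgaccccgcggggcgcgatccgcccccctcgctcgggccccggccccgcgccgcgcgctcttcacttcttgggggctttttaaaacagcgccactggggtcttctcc

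The HOX promoters were not AT-rich as a set. Their GC content ran from 43.7% to 76.3% with a median of 58.0%, beside 58.7% over all 35116 RefSeq promoters. They held more CpG pairs, with a median of 22.5 against 14 per promoter. The ratio of observed to expected CpG was above 0.6 in 21 of 26 HOX promoters and in 17154 of all 35116. Its median was 0.85 against 0.58 over all promoters. Of the 26 HOX promoters 7 belong to HOXA3, so they do not stand for separate genes.

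Among the HOXA genes, the promoter of HOXA13, which shapes the ends of the limbs and the genital tract, had the highest GC content (76.3%) and 44 CpG pairs, and it held no TAAT. The promoter of the hindbrain gene HOXA2 had 46.3% GC and 11 CpG pairs. The promoter of HOXA9 had 48.0% GC, 22 CpG pairs and 7 matches to TAAT over its full length. The 7 promoters of HOXA3, a gene of the thymus and parathyroid, spanned 43.7% to 72.7% GC, so alternative starts of 1 gene differed almost as much as different HOX genes did. HOXA4 had 63.3%, HOXA6 60.3%, HOXA7 68.0%, HOXA11 51.3%, and the 2 promoters of HOXA10 had 62.7% and 56.7% GC.

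In the HOXD cluster the promoters at the opposite ends were both GC-rich, with 74.3% for HOXD1 and 74.0% for HOXD13, the digit gene. The lowest was HOXD4 with 47.3% GC and 4 CpG pairs. Between them lay HOXD12 with 54.3%, HOXD3 with 58.0%, HOXD10 with 60.0%, HOXD11 with 62.3% and HOXD8 with 71.7% GC. HOXB1, which specifies a segment of the hindbrain, had 58.0% GC, and the promoter shared by HOXC4 and HOXC5 had 51.7%.

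Short words were counted on both strands of the full promoters. TAAT was present in 20 of 26 HOX promoters (76.9%) and in 50.2% of all promoters. The AT-rich word TATTTA, of the kind AT-hooks can bind, was present in 8 of 26 (30.8%) against 12.6%, and AATATT in 3 of 26 (11.5%) against 6.96%. All 3 promoters with AATATT and 3 of the 8 with TATTTA belong to HOXA3, so the former stands for 1 gene and the latter for 6 of 20 genes. The HOX-PBX word TGATTNAT was present in 2 of 26, those of HOXA2 and HOXD11 (7.69%), against 2.82%. The MEIS word TGACAG was in 4 of 26 (15.4% against 15.8%), the GATA word AGATAA in 2 of 26 (7.69% against 10.3%) and AGGNGGC, part of the CTCF core, in 11 of 26 (42.3% against 35.9%). HOXA3 also gave 6 of the 20 promoters with TAAT, 4 of the 11 with AGGNGGC and both of those with AGATAA, so AGATAA stands for 1 gene. Of the 26 promoters 16 are from HOXA, with 1 each from HOXB and HOXC. A match to a short word is not evidence of binding.

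**Figure D1:**
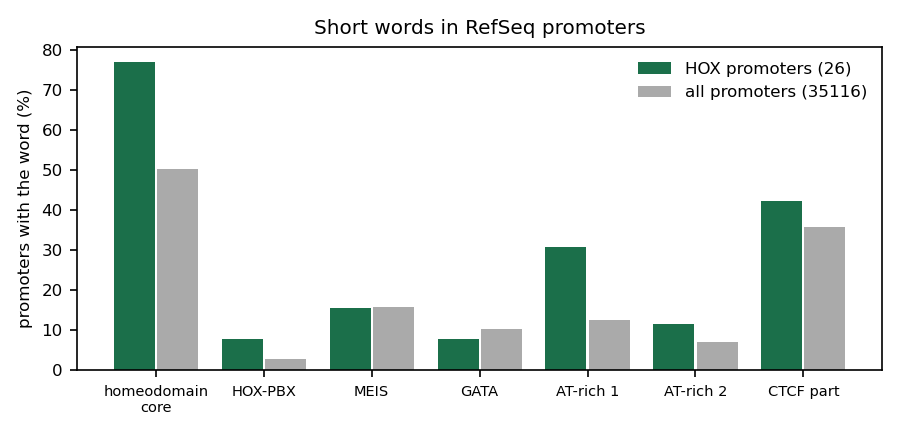
Share of promoters (vertical axis, percent) that hold each of 7 short words on either strand, for 26 HOX promoters and for all 35116 RefSeq promoters. The homeodomain core stands at 76.9% against 50.2% and the first AT-rich word at 30.8% against 12.6%, while the MEIS word is nearly level at 15.4% and 15.8%.

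All 4 HOX clusters held peaks in both lists, and the total number of peaks in them was the same in the control and shHMGA1 lists. HOXA held 8 control and 9 shHMGA1 peaks, HOXB 20 and 20, HOXC 11 and 10, and HOXD 13 and 13. The total of 52 and 52 gives a ratio of 1.00, whereas the whole lists had a ratio of 0.886. Peaks covered 36163 bp of the clusters in control (6.03%) and 37683 bp (6.28%) in shHMGA1, a ratio of 1.04 beside 0.909 for the whole lists. Covered length in shHMGA1 relative to control was 0.949 in HOXA, 1.06 in HOXB, 1.11 in HOXC and 1.07 in HOXD. With 1 list per group, these small differences cannot be set against any spread between samples. When only peaks with a summit −log10 p of at least 5.24, the median of both lists joined, were kept, 33 control and 29 shHMGA1 peaks were left, a ratio of 0.879 beside 0.873 for the whole lists, so the contrast in peak number was gone. The covered shares of HOXB (4.16% and 3.90%) and HOXC (3.59% and 3.39%) were also the lower in shHMGA1 under that threshold.

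In density and cover the clusters differed more from one another than between the lists. HOXD, the shortest at 110 kb, was the most densely occupied, with 11.8 peaks per 100 kb in both lists and 7.76% of its bases covered in control and 8.29% in shHMGA1. With the bounds moved inwards by 10 kb HOXA was the most covered instead (7.05% and 6.84%, beside 6.71% and 6.73% in HOXD), and in shHMGA1 HOXD then had fewer peaks per 100 kb (8.89) than HOXB (10.0) and HOXC (9.09). HOXB had 9.09 peaks per 100 kb in both lists, with 5.87% and 6.20% covered. HOXC had 8.46 and 7.69 peaks per 100 kb and the lowest covered share, 4.67% and 5.17%. HOXA had the fewest peaks per 100 kb, 5.71 and 6.43, with the highest median widths, 910 and 988 bp, and 6.17% and 5.86% of it was covered. That place among the clusters turned when weak peaks were left out: HOXC was the lowest in shHMGA1 with the stricter threshold and with both lists cut to equal size, 56305 peaks by summit value (3.85 beside 4.29 in HOXA for each), and HOXB was the lowest in control at equal size (4.09 beside 4.29). Median widths in the other clusters were 557 and 594 bp in HOXB, 455 and 693.5 bp in HOXC, and 394 and 408 bp in HOXD.

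**Figure D2:**
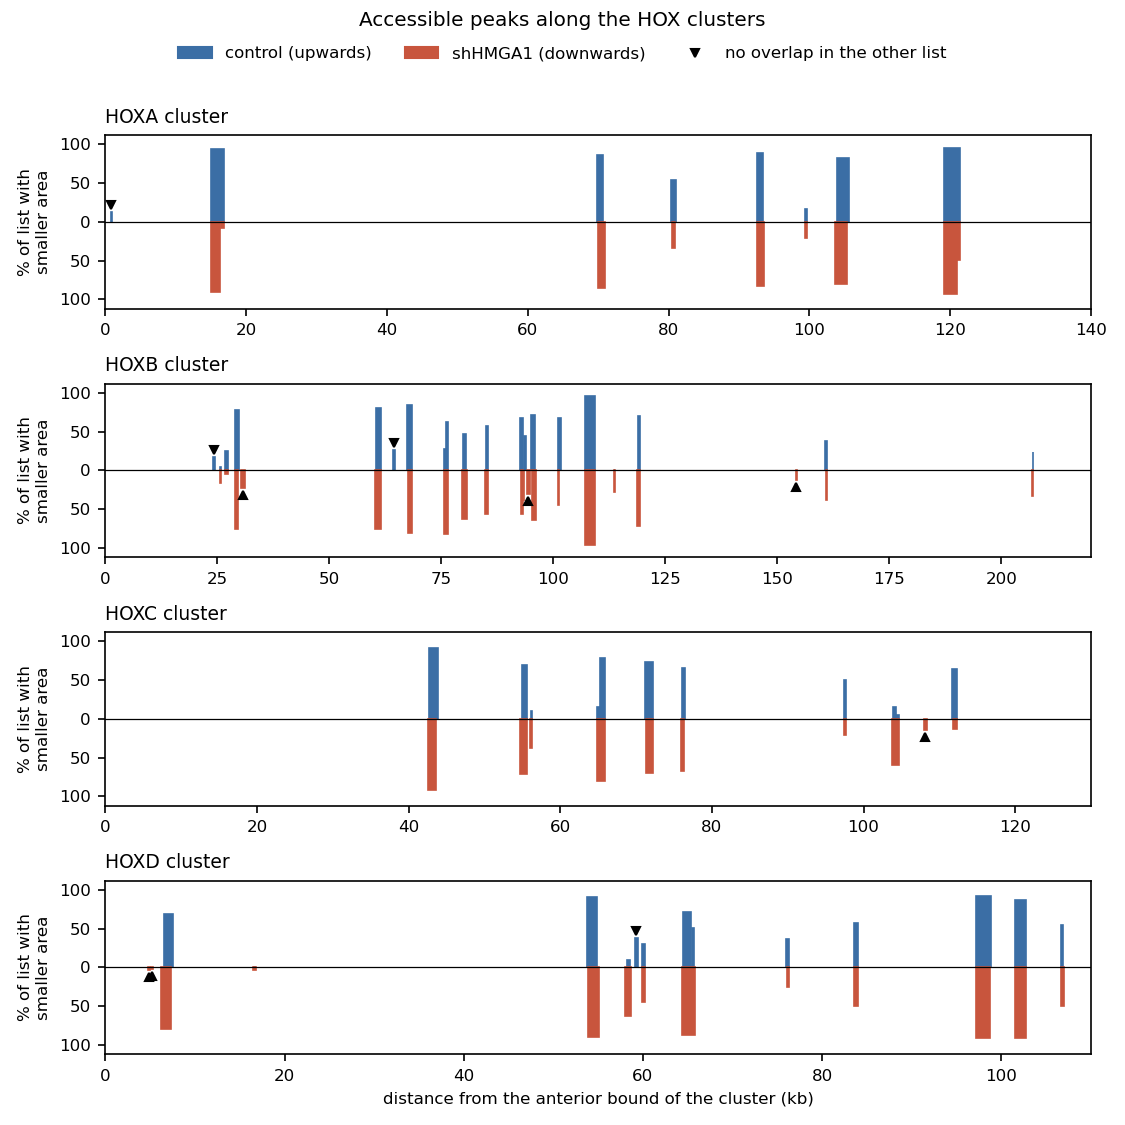
Peaks of each HOX cluster by distance from the anterior bound (horizontal axis, kb), with control peaks drawn upwards and shHMGA1 peaks downwards at their true widths. Height is the percent of that list's peaks with a smaller area, black triangles mark the 4 control and 6 shHMGA1 peaks without a partner, and peaks near the bottom of their list are too short to see; the same sites recur in both lists, with long empty stretches between them.

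The clusters stood out from their surroundings in both lists, except at the anterior side of HOXC. In the 500 kb beyond the anterior bound of HOXA there were 5 control and 5 shHMGA1 peaks, and beyond the posterior bound 7 and 5, which is 1.0 to 1.4 peaks per 100 kb. HOXB was flanked by 18 and 19 peaks on its anterior side and by 16 and 18 on its posterior side. HOXD had 23 and 19 peaks on the anterior side but only 6 and 7 on the posterior side. HOXC had 43 control peaks (8.6 per 100 kb) and 39 shHMGA1 peaks (7.8 per 100 kb) on its anterior side, about as dense as the cluster itself. That side was covered by 5.14% in control and 5.24% in shHMGA1, above the 4.67% and 5.17% of the cluster. On the posterior side of HOXC there were 21 and 19 peaks.

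Position along the clusters was uneven, and the unevenness was much the same in both lists. Each cluster was cut into 5 equal parts from the anterior end (part 1) to the posterior end (part 5). In HOXA, part 1 was covered by 7.46% in control and 5.79% in shHMGA1, part 2 held no peak in either list, and part 4 was the most covered, with 9.68% and 10.7%. In HOXB, cover rose to 12.8% and 12.2% in part 3 and was below 1% in parts 4 and 5. In HOXC, part 1 held no peak and part 3 had 12.5% and 14.0%. In HOXD, part 2 held no peak, while part 3 (15.1% and 16.1%) and part 5 (14.6% and 14.5%) were the most covered of all.

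**Figure D3:**
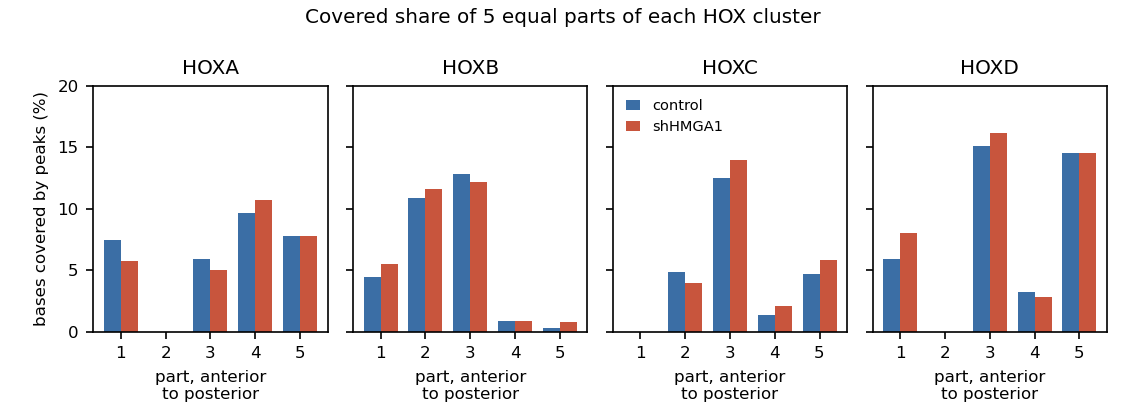
Percent of bases covered by peaks (vertical axis) in 5 equal parts of each HOX cluster from anterior (1) to posterior (5), in control (blue) and shHMGA1 (red). The bars of the lists rise and fall together, with empty parts in HOXA (2), HOXC (1) and HOXD (2) and the highest cover, 15.1% and 16.1%, in part 3 of HOXD.

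Long stretches without any peak of either list lay inside each cluster. The longest was in HOXA, chr7:27136897-27189843, 52.9 kb or 37.8% of the cluster, from 16.9 to 69.8 kb from the anterior bound. Besides 24.1 kb next to its anterior bound, HOXB had empty stretches of 29.2 kb (chr17:46626063-46655267), 34.7 kb (chr17:46714404-46749121) and 45.7 kb (chr17:46756061-46801785), the last 2 towards the posterior end, where HOXB13 is the last gene. HOXD had one of 36.9 kb (chr2:177006256-177043193), and HOXC one of 20.9 kb (chr12:54357615-54378510) besides the 42.6 kb next to its anterior bound. The empty stretches of the control list had near-equal counterparts in the shHMGA1 list, with 52.9 and 53.1 kb in HOXA and 37.0 and 37.1 kb in HOXD. The largest difference was in HOXB, where a control stretch of 41.3 kb was 34.9 kb in shHMGA1 because 1 weak peak fell inside it.

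Most HOX peaks were shared, meaning that they overlapped a peak of the other list by at least 1 bp. Of the control peaks 48 of 52 were shared (92.3%, exact 95% interval 81.5 to 97.9) and of the shHMGA1 peaks 46 of 52 (88.5%, 76.6 to 95.6). The unshared peaks were 4 of 52 in control (7.69%), against a background of 24.9% over the whole control list, and 6 of 52 in shHMGA1 (11.5%), against a background of 14.8%. The control share lay under its background and the shHMGA1 share near its own. When the lists were cut to equal size, both shares were near the background: 4 of 29 HOX control peaks were unshared (13.8%, whole list 15.5%) and 4 of 30 HOX shHMGA1 peaks (13.3%, whole list 14.9%). These were other peaks than the unshared ones of the full lists, which had summit values of at most 4.68 and 4.43 and were removed. They had a partner in the full other list, and that partner fell under the cut. The intervals cover counting error only and treat neighbouring peaks as independent.

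Sharing goes with the strength of a peak, so it was also read within each list by the authors' summit value, a −log10 p. Among peaks in the stronger 50% of their list, 33 of 33 HOX control peaks and 30 of 30 HOX shHMGA1 peaks were shared, which allows unshared shares of up to 9.09% and 10.0%. The whole lists had 96.1% and 98.5% shared in those ranges. Among the weaker 50%, 15 of 19 HOX control peaks were shared (78.9%, exact interval 54.4 to 93.9) beside 54.2% of all weaker control peaks. In shHMGA1 it was 16 of 22 (72.7%, 49.8 to 89.3) beside 71.9%.

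By cluster, HOXC had all 11 control peaks shared and 9 of 10 shHMGA1 peaks, and HOXA had 7 of 8 control and 9 of 9 shHMGA1 peaks. HOXB had 18 of 20 and 17 of 20, and HOXD 12 of 13 and 11 of 13. With counts of this size a count of 0 unshared allows up to 27.3% in HOXC (control) and 33.3% in HOXA (shHMGA1), so the clusters could not be ranked by sharing. In bases, the lists had 30665 bp in common, 71.0% of the 43181 bp covered in either. By cluster this share was 77.5% in HOXA, 64.0% in HOXB, 73.8% in HOXC and 74.1% in HOXD. It was not computed over the whole lists, so whether the HOX values are unusual is not known. The values are descriptions and do not rank the clusters.

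Merging overlapping peaks of both lists gave 54 HOX sites, of which 38 had exactly 1 peak in each list. Another 2 sites were 1 peak in control and 2 in shHMGA1, both in HOXA. A further 4 were 2 peaks in control and 1 in shHMGA1, namely 2 in HOXC, 1 in HOXB and 1 in HOXD. The remaining sites were 4 control-only and 6 shHMGA1-only. Thus 2 of 52 HOX control peaks and 4 of 52 HOX shHMGA1 peaks overlapped 2 peaks of the other list. Over the whole lists 3.58% of control and 3.72% of shHMGA1 peaks overlapped 2 or more, so these small counts set HOX apart in neither list. The gap between the pieces of a divided site was 101 to 124 bp, close to the smallest gap between neighbouring peaks anywhere in the lists, 101 bp.

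The strength of the HOX peaks was given by the area under the authors' significance curve (column 7), which grows with height and width, and was read only as a rank within a list. Ranks from lists of different lengths stand side by side as descriptions and show no change. The control peaks had areas from 200.1 to 7027 with a median of 758, beside 602 for the whole list. The shHMGA1 peaks had 207 to 7199 with a median of 738, beside 616. Of the HOX control peaks 31 of 52 (59.6%) and of the shHMGA1 peaks 28 of 52 (53.8%) ranked in the upper 50% of their list, and 6 (11.5%) and 7 (13.5%) in the top 10%. By construction 50% and 10% of each whole list lie in these ranges, so the HOX counts are near the background. Peaks at least 1000 bp wide were 11 of 52 (21.2%) in control and 16 of 52 (30.8%) in shHMGA1, beside 19.4% and 20.1% of the whole lists.

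A few strong sites carried much of each cluster. Of the summed area, the 3 largest peaks made up 71.8% in control and 67.6% in shHMGA1 in HOXA, 66.4% and 60.3% in HOXD, 61.6% and 63.7% in HOXC, and 50.1% and 49.8% in HOXB. Such a share depends on the number of peaks, which was 8 and 9 in HOXA but 20 and 20 in HOXB. It therefore does not rank the clusters, and it was not computed for other regions. At 6 sites the peak exceeded 90% of the list in both lists, and all of the clusters had at least 1 of them. The strongest site of each cluster lay at a different place: towards the posterior end in HOXA and HOXD, near the middle in HOXB and at the most anterior site in HOXC.

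In HOXA the strongest site was the most posterior, 120 kb from the anterior bound, on the side of HOXA13. The control list had 1 peak there, chr7:27239185-27241374, 2190 bp wide, with an area of 6542, above 95.3% of the list. The shHMGA1 list had 2, chr7:27239096-27240936 with an area of 5398, above 93.6% of its list, and chr7:27241038-27241383 with an area of 604. The widths of the shHMGA1 peaks added to 2187 bp, nearly the width of the control peak. It was also the widest HOXA peak in both lists.

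The next HOXA site was the most anterior shared one, 16.1 kb from the anterior bound, on the side of HOXA2 and HOXA3. The control peak chr7:27134990-27136896 was 1907 bp wide with an area of 5608, above 94.1% of the list. In shHMGA1 it was divided into chr7:27135037-27136330, with an area of 3877, above 90.1%, and chr7:27136455-27136780, with an area of 234. Between these ends, 5 sites had 1 peak in each list. The site at chr7:27200281-27201035 was the one that narrowed most, from 755 to 407 bp (log2 ratio -0.89), with ranks above 53.7% and 33.7% of the lists. The site that widened most, chr7:27212521-27213445 in control, went from 925 to 1061 bp (0.20), with ranks above 88.9% and 82.8%.

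In HOXB the strongest and widest peak of both lists lay near the middle, 109 kb from the anterior bound. In control it spanned chr17:46702085-46704331, 2247 bp, with an area of 7027, above 95.8% of the list. In shHMGA1 it spanned chr17:46702167-46704332, 2166 bp, with an area of 7199, above 96.0%. Its summit differed by 3 bp between the lists. It was the largest area of all HOX peaks in both lists and the only HOXB peak in the top 10%.

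HOXB also held the largest changes of width among the sites with 1 peak per list. The site at chr17:46688356-46688930 in control was 575 bp wide and 180 bp in shHMGA1 (log2 ratio -1.68), and the summits were 1 bp apart. The most posterior site, chr17:46801963-46802104 in control, was 142 bp wide and 345 bp in shHMGA1 (1.28). Neither was strong: the former ranked above 44.7% and 39.5% of the lists and the latter above 23.2% and 33.4%. Another HOXB site, chr17:46696004-46696674, went from 671 to 240 bp (-1.48), with ranks above 67.8% and 44.6%.

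In HOXC the strongest and widest control peak was the most anterior, chr12:54411126-54412380, 43.1 kb from the anterior bound, on the side of HOXC4, HOXC5 and HOXC6. It was 1255 bp wide with an area of 4433, above 91.8% of the list, and its shHMGA1 partner chr12:54411397-54412416 was 1020 bp wide with an area of 4491, above 91.7%. The widest HOXC peak of the shHMGA1 list was another, chr12:54389048-54390103, 1056 bp, which joined 2 control peaks of together 964 bp. The site that widened most was chr12:54399392-54400050 in control, from 659 to 893 bp (log2 ratio 0.44). The one that narrowed most was the most posterior, chr12:54342608-54343283, on the side of HOXC13, from 676 to 494 bp (-0.45). That posterior site ranked above 64.9% of the control list and above 12.8% of the shHMGA1 list.

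In HOXD the strongest and widest peak of both lists lay 97.6 kb from the anterior bound, on the side of HOXD13. It spanned chr2:176961141-176962841 in control, 1701 bp, with an area of 4775, above 92.6% of the list, and chr2:176961262-176962842 in shHMGA1, 1581 bp, with an area of 4563, above 91.9%. Its neighbour at chr2:176957228-176958480 had areas above 87.5% and 91.1% of the lists and widths of 1253 and 1249 bp. A central site, chr2:177005146-177006255 in control, 54.6 kb from the anterior bound, had areas of 4119 and 4018, above 91.1% and 90.5%. The site that widened most was chr2:177001412-177001785, from 374 to 640 bp (log2 ratio 0.78), above 9.24% and 62.2% of the lists, and the one that narrowed most was chr2:176983703-176983995, from 293 to 207 bp (-0.50).

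Over the 38 sites with 1 peak in each list, widths changed in both directions with no common shift. The shHMGA1 peak was the wider at 20 sites and the narrower at 18, and the median log2 width ratio was 0.01, beside -0.03 over 83581 such pairs of the whole lists. Single ratios ran from -1.68 to 1.28. The 5th and 95th percentiles of all pairs were -1.03 and 0.88, but these leave out the extremes of the whole lists and are not a full range. The HOX ratios outside them were -1.68, -1.48 and 1.28, all in HOXB. The medians were 0.13 in HOXA (5 sites), -0.05 in HOXB (16), 0.01 in HOXC (7) and 0.01 in HOXD (10). Summits lay within 50 bp of each other at 28 of 38 sites, with a median distance of 22.5 bp, beside a median of 20 bp and a share of 73.5% over all pairs. Ranks in the lists lay close together at the strong sites and scattered more among the weak ones.

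**Figure D4:**
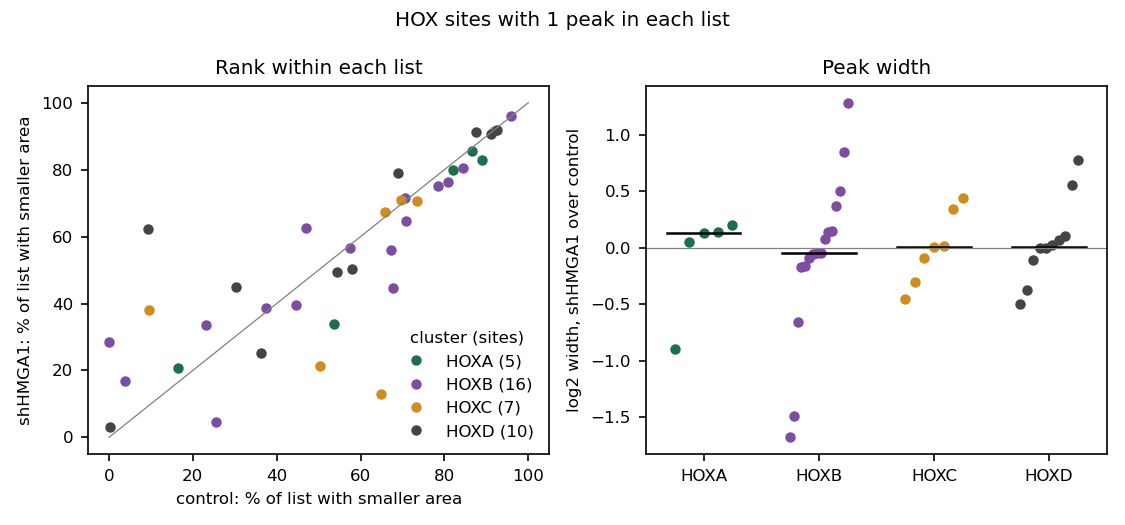
The 38 HOX sites with 1 peak in each list, coloured by cluster: left, percent of the control list (horizontal) and of the shHMGA1 list (vertical) with a smaller area, with the line of equality; right, log2 ratio of width, shHMGA1 over control, with a black bar at each cluster's median. Points above 80% lie close to the line, and width ratios lie on both sides of 0, from -1.68 to 1.28, both extremes being in HOXB.

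The 10 unshared HOX peaks were all weak. The 4 control-only peaks had areas of 255 to 438, at most above 38.0% of the list, and widths of 183 to 539 bp. They were chr7:27120772-27120954 at the anterior bound of HOXA, chr17:46619127-46619364 and chr17:46659186-46659724 in HOXB, and chr2:177000602-177000875 in HOXD. The nearest shHMGA1 peaks were 9253, 1204, 2625 and 486 bp away. Of the 19 HOX control peaks that ranked no higher than the strongest of them, 15 were shared.

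The 6 shHMGA1-only peaks had areas of 207 to 370, at most above 30.2% of the list. In HOXB they were chr17:46625318-46626062, chr17:46689078-46689724 and chr17:46749122-46749276, the last of them 6401 bp from a control peak and the others 582 and 147 bp. In HOXC there was chr12:54346677-54347046, 3307 bp from a control peak. In HOXD there were chr2:177054741-177054920 and chr2:177055045-177055239, 1286 and 1590 bp from a control peak and both near the anterior end, on the side of HOXD1. Of the 15 HOX shHMGA1 peaks that ranked no higher than the strongest of these, 9 were shared.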

How the data were processed

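Each ATAC-seq reaction took 50000 cells and 2 µl of Tn5 at 37 °C for 45 min, per the labels' protocols. Peaks were called with Genrich on hg19, per the submitters' processing notes; the caller's settings, read alignment and pooling of the 3 samples in each group were not given in the sources used here. The 2 deposited lists, 1 per group, were assigned by their names. They give positions and summit offsets in bases, the deposited signal (area under the significance curve) and the deposited summit −log10 p, unadjusted. Both are the authors' values and were used only to rank or filter within a list. Both depend on sequencing depth, which is unknown, and no test between the lists was made.

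Scripts ran in Python 3.11.15 with pandas 2.3.3, numpy 2.4.6 and scipy 1.17.1, and plots were drawn with matplotlib 3.10.9. The overlap and coverage code was tested on simulated data. Intervals are exact (Clopper-Pearson, 95%), and limits for a count of 0 use 3 counts. Single peaks were named by a rule: per cluster and list the largest area, the widest, unshared peaks, and the extreme width ratios; a few others were added after their values were seen. The 4 printed promoters were chosen after their values were seen. Genes, bounds and lists were chosen with earlier results of these data known.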

Additional observations from a re-analysis of the deposited data

How the results depend on the processing

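Alternatives were a stricter threshold (summit −log10 p of at least 5.24 in both lists), equal numbers (the 56305 most significant peaks of each list), merging within 150 bp, bounds moved inwards by 10 kb, reciprocal overlap of 50% and a distance of 500 bp. Numbers of peaks moved most where weak peaks were left out, which by construction leaves fewer. The stricter threshold left 11 control and 10 shHMGA1 peaks in HOXB, 6 and 5 in HOXC, and 10 and 8 in HOXD. Equal numbers left 9 and 11 in HOXB, 6 and 5 in HOXC and 8 and 8 in HOXD. The narrower bounds left 10 and 8 in HOXD. Merging within 150 bp gave 8 and 7 in HOXA and 9 and 10 in HOXC, each reversing which list had more. In HOXB merging gave 18 and 19, and in HOXD 12 and 12. Covered shares (control, then shHMGA1) under the stricter threshold were 5.90% and 5.19% in HOXA, 4.16% and 3.90% in HOXB, 3.59% and 3.39% in HOXC, and 6.90% and 6.90% in HOXD. Under equal numbers they were 5.90% and 5.19%, 3.73% and 4.06%, 3.59% and 3.39%, and 5.70% and 6.90%. With narrower bounds they were 7.05% and 6.84%, 6.46% and 6.82%, 5.51% and 6.11%, and 6.71% and 6.73%. HOXD was thus no longer the most covered in either list with narrower bounds, and in control under equal numbers. The larger shHMGA1 cover of HOXB and HOXC reversed under the stricter threshold, and that of HOXC also under equal numbers.

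Sharing over all HOX peaks fell to 75.0% in both lists with reciprocal overlap (whole lists 62.3% and 70.4%) and to 65.0% and 65.0% in HOXB, 72.7% for HOXC control and 77.8% for HOXA shHMGA1. Under the stricter threshold all 29 HOX shHMGA1 peaks were shared, beside 89.7% of the whole shHMGA1 list. They were 6 peaks in HOXA, 10 in HOXB, 5 in HOXC and 8 in HOXD. The 6 shHMGA1-only peaks had summit values of at most 4.43, so that threshold removed them. Equal numbers gave 100% for HOXC shHMGA1 (5 peaks, whole list 85.1%). A distance of 500 bp gave 100% for HOXD control (13 peaks, whole list 78.8%). The HOX control share was level with that of its whole list with equal numbers (86.2% of 29 peaks against 84.5%), while the stricter threshold gave 87.9% against 78.2%. In both settings the unshared HOX control peaks had partners in the full shHMGA1 list that fell under the cut. Unknown depth limits every statement on weak peaks. No paired analysis was possible because neither list holds separate samples, which also leaves no replicate to drop. No alternative was added after the data were seen.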

Other observations

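The HOX clusters also hold microRNA genes. In RefSeq (GRCh38.p14) MIR196B lies among the HOXA genes, MIR196A1 among the HOXB genes and MIR196A2 among the HOXC genes. The miR-196 genes of these 3 clusters give mature products with the same seed, bases 2 to 8, in capitals, and miR-196 is known to act on transcripts of HOX genes. The products of MIR196A1 and MIR196A2 are identical, and that of MIR196B differs from them by A12C, counted from the 5′ end of miR-196a. Peaks were not assigned to these genes.
hsa-miR-196a-5p: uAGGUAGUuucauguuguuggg
hsa-miR-196b-5p: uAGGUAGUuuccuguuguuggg

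Some weak HOX sites had very different ranks in the lists, given as values because ranks from lists of different length show no change. A HOXB site at chr17:46708558-46708742 had the smallest area of all HOX control peaks (200.1, above 0.0244% of the list), and its shHMGA1 partner was above 28.5% of its list, with the summit at the same base. The HOXC site of chr12:54350354-54351274 in shHMGA1 joined 2 control peaks that ranked above at most 14.8% of their list, and itself ranked above 60.2%. A HOXC site at chr12:54357323-54357614 ranked above 50.3% of the control list and above 21.2% of the shHMGA1 list. Over the 38 sites with 1 peak in each list the Spearman correlation of area was 0.89, across sites that share their libraries, and 4 of the 5 largest areas were the same sites in both lists.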
